A study of Mus musculus with 11 samples.

Results

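The genes described here are 10 components of the machinery that makes microRNAs and lets them act: Drosha, Dgcr8, Xpo5, Dicer1, Tarbp2, Ago1, Ago2, Tnrc6a, Tnrc6b and Tnrc6c. They were chosen by symbol and role, with results of the same hypoxia against control comparison already known, so their fold changes are a description and are no independent evidence. All 10 were found among the 48709 gene IDs of the count tables, and all 10 were among the 16235 genes with enough reads to be tested. RNA was measured in primary hippocampal neurons of the mouse after 10 days in culture. The hypoxia group (5 libraries) was held at 1% O2 for 4 h, and the control group (6 libraries) stayed at 20% O2. Per the labels, hypoxic and control cells shared an isolation, no genotype or other agent is given, and nothing says whether libraries of 1 group came from separate dishes. The p-values therefore measure the spread between these libraries, which may be technical.

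MicroRNAs are short RNAs that guide an Argonaute protein to matching messenger RNAs and lower their output. In the nucleus, the Microprocessor, made of the ribonuclease Drosha and its RNA-binding partner Dgcr8, cuts hairpins out of long primary transcripts. Exportin 5 (Xpo5) carries the hairpin to the cytoplasm, where Dicer1 with its partner Tarbp2 trims it to a short duplex. An Argonaute protein keeps 1 strand and recruits a Tnrc6 (GW182) protein, which brings in the enzymes that shorten and decap the target mRNA. In neurons this system is known for controlling differentiation, dendritic growth and local translation at synapses.

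Dgcr8 is also itself a target of the Microprocessor, since its mRNA carries hairpins that Drosha can cut. Hairpin sequence from its exons is shown because it ties a member to the reaction it takes part in (RefSeq, GRCm38.p6). The mir-1306 hairpin lies on the minus strand at chr16:18284239-18284317, within the coding sequence of Dgcr8. The mature products of mir-3618 lie at chr16:18284562-18284583 and chr16:18284602-18284623, in an untranslated part of a Dgcr8 exon. In the hairpin no base is marked, and in the mature sequences the capitals mark the seed, bases 2 to 8, which pairs with targets.
mir-1306 hairpin: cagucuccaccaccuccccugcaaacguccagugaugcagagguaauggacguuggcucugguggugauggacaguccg
miR-1306-5p: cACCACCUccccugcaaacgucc
miR-1306-3p: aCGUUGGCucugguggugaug
miR-3618-5p: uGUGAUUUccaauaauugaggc
miR-3618-3p: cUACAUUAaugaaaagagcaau
The count tables have rows of their own for both hairpins, and each held 0 counts in all 11 libraries. Both hairpins lie wholly within exons of Dgcr8 on the same strand, so a read there fits either gene. The 0 counts are therefore no measure of hairpin RNA. Reads of 50 bp from polyadenylated RNA do not measure mature microRNAs.

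Library totals ran from 16619493 counts in control 1 to 31917157 in hypoxia 5, with means of 2.63e+07 ± 3.44e+06 in hypoxia and 2.71e+07 ± 5.41e+06 in control (SD, n = 5 and 6; exact permutation p = 0.801, 2-sided). Control 1 and hypoxia 5 stood farthest from their own groups. The excitatory neuron markers Slc17a7, Neurod6 and Camk2a were abundant, and the summed level of the 6 markers of this type was 2993 to 3172 CPM in hypoxia and 2811 to 3088 CPM in control. Of these 6, Neurod6 and Tbr1 were higher in hypoxia. The cultures also held RNA of other cells: summed astrocyte markers were 1332 to 1459 CPM in hypoxia and 1349 to 1548 CPM in control, with Aqp4 lower (1 of 5 tested). Summed oligodendrocyte lineage markers were 91.1 to 120 CPM in hypoxia and 108 to 152 CPM in control, with Olig1 and Olig2 lower (2 of 6). Fibroblast and meningeal markers summed to 173 to 332 CPM in hypoxia and 181 to 247 CPM in control, with Pdgfrb higher (1 of 6). For comparison, 12.8% of all genes tested were called lower and 10.1% higher. In edgeR, 0 genes of the interneuron, microglial or endothelial and mural lists were called, and 0 with DESeq2. At an unadjusted p under 0.05 these lists had 0, 1 and 2 genes. The part of cell composition in the results below was not tested. In bulk RNA, fewer cells of a type and less RNA per cell cannot be told apart.

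After 4 h of hypoxia, 5 of the 10 machinery genes fell: Dicer1, Dgcr8, Tarbp2, Tnrc6a and Tnrc6c. None was called higher, and at an unadjusted p under 0.05 in edgeR, or with DESeq2, 0 were higher too. Drosha, Xpo5, Ago1, Ago2 and Tnrc6b were not called. The decreases ran from 12.5% for Tnrc6c to 32.3% for Dicer1. Calls rest on edgeR's quasi-likelihood test with Benjamini-Hochberg adjustment over all 16235 genes and a threshold of 0.05, by which 12.8% of all genes tested were lower and 10.1% were higher. The median log2 fold change was -0.14 over the 10 members and -0.02 over all genes tested. Without control 1 and hypoxia 5 together, 5 members were called lower and 0 higher. Because the members were chosen with this comparison known, nothing is read from these counts beyond the members themselves.

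**Figure D1:**
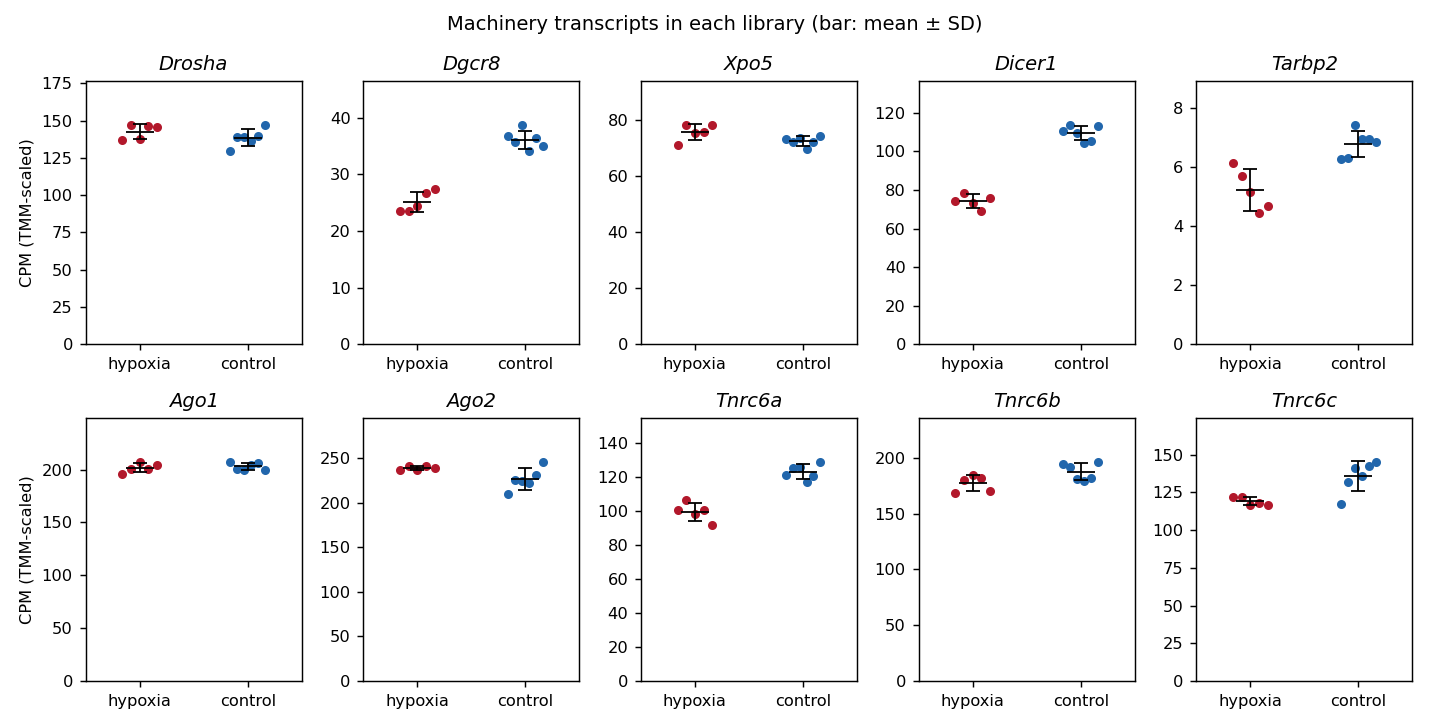
Level of each machinery transcript in CPM (counts scaled to library size with TMM factors; linear axis from 0) in each hypoxia (red, n = 5) and control (blue, n = 6) library, with the mean and SD in black. The hypoxia libraries lie below all control libraries for Dgcr8, Dicer1, Tarbp2 and Tnrc6a, and overlap them for the other 6 genes.

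Dgcr8 (ENSMUSG00000022718, chr16:18253948-18289246, minus strand; positions are from GENCODE vM21 on GRCm38, the same sequence as mm10) encodes the RNA-binding subunit of the Microprocessor. In hypoxia 1 to 5 it stood at 23.6, 23.6, 24.5, 26.7 and 27.4 CPM, against 36.8, 35.7, 38.8, 34.1, 36.4 and 35.0 CPM in control 1 to 6. Every hypoxia library was below every control library, with a clear gap between the groups. It was 30.3% lower (log2 fold change -0.52, SE 0.05, edgeR adjusted p = 3.88e-06). The library kit that the labels name is one that does not mark the strand, and the strand setting of the counting was not given. As 10.7% of the annotated exon length of Dgcr8 overlaps Trmt2a on the opposite strand, reads there may come from either gene. Trmt2a itself had a log2 fold change of -0.14 (SE 0.05, edgeR adjusted p = 0.0521).

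Drosha (ENSMUSG00000022191, chr15:12824815-12935291, plus strand), the ribonuclease of the same complex, was not called. It had 137, 147, 137, 146 and 145 CPM in hypoxia 1 to 5, against 129, 139, 139, 136, 140 and 147 CPM in control 1 to 6. The groups overlapped almost fully. Its log2 fold change was 0.04, with a 95% interval of -0.04 to 0.12 (edgeR adjusted p = 0.457). Per kilobase of exon, the level of Drosha was 7.37 ± 0.46 times that of Dgcr8 in hypoxia and 4.97 ± 0.33 times in control (SD, n = 5 and 6). This ratio ran from 6.87 to 8.08 in hypoxia and from 4.56 to 5.45 in control, without overlap. As Drosha was not called, the ratio restates the fall of Dgcr8 and is no further result.

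Xpo5 (ENSMUSG00000067150, chr17:46202782-46243598, plus strand), the export receptor for hairpin precursors, was not called. Its range was 71.2 to 78.2 CPM in hypoxia, with a median of 75.6 CPM, and 69.5 to 74.2 CPM in control, with a median of 72.7 CPM. Its log2 fold change was 0.06, with a 95% interval of -0.01 to 0.14 (edgeR adjusted p = 0.225).

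Dicer1 (ENSMUSG00000041415, chr12:104687742-104751952, minus strand), the cytoplasmic ribonuclease that cuts the hairpin into a duplex, had the largest fold change of the 10. In hypoxia 1 to 5 it stood at 74.5, 78.5, 73.0, 68.9 and 75.7 CPM, against 111, 114, 110, 105, 105 and 113 CPM in control 1 to 6. The highest hypoxia library was well below the lowest control library. It was 32.3% lower (log2 fold change -0.56, SE 0.04, edgeR adjusted p = 9.28e-08). Per kilobase of exon, Dicer1 was at 0.184 ± 0.01 of the level of Drosha in hypoxia and 0.281 ± 0.013 in control (SD, n = 5 and 6).

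Tarbp2 (ENSMUSG00000023051, chr15:102518192-102523676, plus strand) encodes the double-stranded RNA-binding partner of Dicer1. It was the member with the fewest reads, 105 to 231 counts per library. Its level was 6.14, 5.68, 5.16, 4.45 and 4.68 CPM in hypoxia 1 to 5, against 6.28, 6.30, 7.43, 6.94, 6.95 and 6.85 CPM in control 1 to 6. The groups did not overlap, but hypoxia 1 and control 1 nearly touched. It was 23.6% lower, with the widest error among the members (log2 fold change -0.39, SE 0.09, edgeR adjusted p = 0.00517). Prkra, which encodes PACT, the other known partner of Dicer1 of this type, averaged 35.7 ± 2.18 CPM in hypoxia and 35.0 ± 2.36 CPM in control and was not called (SD, n = 5 and 6).

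Of the Argonautes, Ago1 and Ago2 were the most abundant per kilobase of exon and neither was called. Ago2 (ENSMUSG00000036698, chr15:73095844-73184935, minus strand), the Argonaute that can itself cut a fully paired target, had 237, 241, 237, 241 and 239 CPM in hypoxia 1 to 5, against 209, 226, 224, 222, 231 and 246 CPM in control 1 to 6. Control 6 was above every hypoxia library and the other 5 control libraries were below them. In edgeR's fit the difference was 0.08 on the log2 scale, with a 95% interval of -3.12e-05 to 0.16 (edgeR adjusted p = 0.144). Without control 6 it was 0.10 and the gene was called higher (edgeR adjusted p = 0.0348). The authors' deposited table lists Ago2 as higher, with a log2 fold change of 0.10 and an adjusted p of 0.0219.

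Ago1 (ENSMUSG00000041530, chr4:126435012-126468583, minus strand) ran from 196 to 207 CPM in hypoxia, with a median of 201 CPM, and from 200 to 208 CPM in control, with a median of 203 CPM. Its log2 fold change was -0.01, with a 95% interval of -0.07 to 0.05 (edgeR adjusted p = 0.860), the fold change nearest to 0 among the 10. Ago3 and Ago4, the other Argonautes, were not called. Ago3 averaged 50.2 ± 5.32 CPM in hypoxia and 51.6 ± 3.54 CPM in control, and Ago4 16.05 ± 1.003 CPM in hypoxia and 17.1 ± 1.35 CPM in control (SD, n = 5 and 6). Per kilobase of exon, Ago1 made up 52.6 ± 0.757% of the 4 Argonaute transcripts in hypoxia and 53.5 ± 1.37% in control. Ago2 made up 36.1 ± 0.563% in hypoxia and 34.5 ± 1.41% in control. All 4 shares overlapped between the groups.

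The Tnrc6 genes encode the scaffold proteins that link Argonaute to the deadenylases. Tnrc6a (ENSMUSG00000052707, chr7:123123885-123195296, plus strand) had 100, 106, 97.8, 101 and 91.8 CPM in hypoxia 1 to 5, against 121, 125, 126, 117, 120 and 129 CPM in control 1 to 6. All hypoxia libraries were below all control libraries, and hypoxia 5 was the lowest. The decrease was 19.2% (log2 fold change -0.31, SE 0.04, edgeR adjusted p = 5.59e-05).

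Tnrc6c (ENSMUSG00000025571, chr11:117654289-117763439, plus strand) had 122, 122, 117, 118 and 117 CPM in hypoxia 1 to 5, against 118, 132, 141, 136, 142 and 145 CPM in control 1 to 6. Control 1, the library with the lowest total, lay inside the hypoxia range, and the other control libraries were above it. The decrease was 12.5% (log2 fold change -0.19, SE 0.05, edgeR adjusted p = 0.00793). Tnrc6b (ENSMUSG00000047888, chr15:80711313-80941085, plus strand) was not called: it ran from 168 to 185 CPM in hypoxia, with a median of 181 CPM, and from 180 to 197 CPM in control, with a median of 187 CPM. Its log2 fold change was -0.08, with a 95% interval of -0.16 to -0.0026 (edgeR adjusted p = 0.131). Per kilobase of exon, Tnrc6a made up 31.8 ± 0.809% of the 3 Tnrc6 transcripts in hypoxia and 34.3 ± 0.758% in control, with no overlap, while the shares of Tnrc6b and Tnrc6c overlapped.

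**Figure D2:**
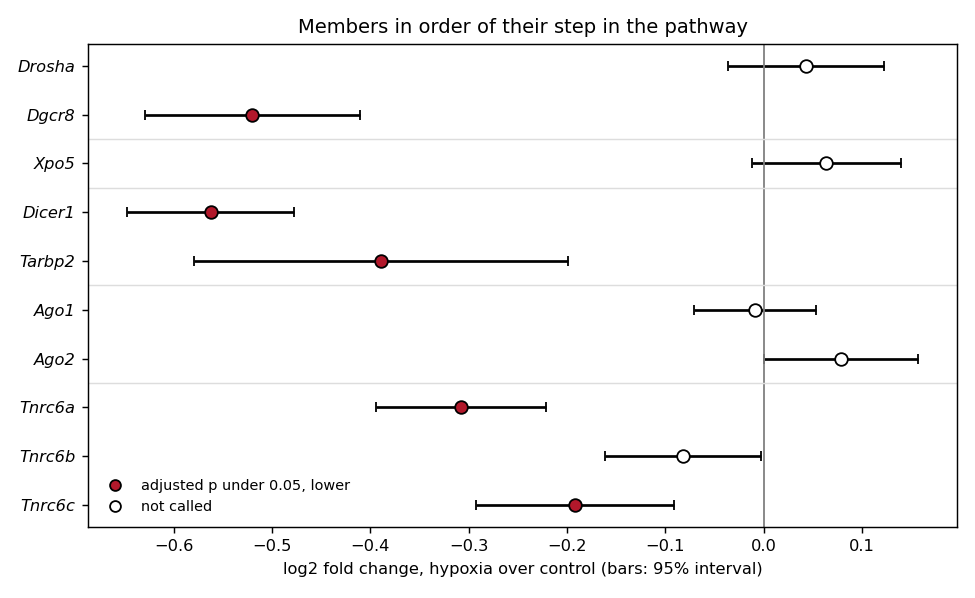
Log2 fold change of each machinery gene, hypoxia over control, with its 95% interval from edgeR's fit, in the order of the steps from nuclear cutting (top) to target silencing (bottom). Filled points are the 5 genes called lower, from -0.56 for Dicer1 to -0.19 for Tnrc6c, and open points are the 5 that were not called.

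In 4 of the 10 members every hypoxia library was below every control library, and in none was every hypoxia library above. Over all genes tested, these shares were 7.26% and 6.72%. At the nuclear step Dgcr8 was called and Drosha was not, and at the silencing step Tnrc6a and Tnrc6c were called and Tnrc6b was not. Both members of the dicing step were called. Xpo5 at the export step and Ago1 and Ago2 at the loading step were not. The authors' deposited table lists the same 5 members as lower, with log2 fold changes of -0.55 for Dicer1, -0.50 for Dgcr8, -0.37 for Tarbp2, -0.30 for Tnrc6a and -0.16 for Tnrc6c.

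The levels of the members can be ordered per kilobase of annotated exon. In hypoxia the order of the means was Ago1 (24.8 CPM per kb), Drosha (24.0), Ago2 (17.04), Xpo5 (11.03), Tnrc6c (9.27), Tnrc6a (7.82), Tnrc6b (7.49), Dicer1 (4.43), Dgcr8 (3.27) and Tarbp2 (1.148 CPM per kb). In control the means were 25.01 CPM per kb for Ago1, 23.3 for Drosha, 16.1 for Ago2, 10.6 for Tnrc6c and Xpo5, 9.68 for Tnrc6a, 7.93 for Tnrc6b, 6.54 for Dicer1, 4.69 for Dgcr8 and 1.49 CPM per kb for Tarbp2. Among neighbours in each order, Ago1 and Drosha in hypoxia, Tnrc6a and Tnrc6b in hypoxia, and Tnrc6c and Xpo5 in control differed by less than the sum of their SDs, as did Tnrc6c and Tnrc6a in control, which have Xpo5 between them. The 5 called genes had control levels of 1.49 to 10.6 CPM per kb and the 5 others 7.93 to 25.01 CPM per kb. Annotated exon length ran from 4549 to 16750 bp among the called genes and from 5935 to 23677 bp among the others. The exon union can be longer than the transcripts in use, which lowers a level per kilobase.

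Across the 11 libraries, the log2 CPM of Dicer1 went most closely with that of 4933421O10Rik (Pearson r = 0.984), Gm42725 (r = 0.981) and Zcchc2 (r = 0.980), out of 16234 other genes. These libraries share 1 contrast, so any gene that differs between the groups scores high. Among the members, Tnrc6a (r = 0.948) and Dgcr8 (r = 0.931) were nearest to Dicer1, ahead of Tarbp2 (r = 0.839), Tnrc6c (r = 0.756) and Tnrc6b (r = 0.639). Ago1 was at r = 0.149, and Drosha, Xpo5 and Ago2 were below 0.

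Promoter windows, 250 bases before to 50 after the start, were found in RefSeq for 9 of the 10 members (11 windows). They were searched on both strands for ACGTG and GCGTG, the cores of the element that hypoxia-inducible factors bind. A core was in 6 of the 11 windows, against 43.8% of the 32851 windows in the table. Tnrc6c had 3 cores, and Xpo5 and 1 of the 2 windows of Tnrc6b had 2 each. Those of Tnrc6b overlap in a single stretch, CACGTG, which reads the same on both strands. Drosha, Tarbp2 and Tnrc6a had 1 each, and the windows of Dicer1, Dgcr8 and Ago1 had none. The 250 bases upstream of Tnrc6c (GRCm38.p6, chr11:117654039-117654288, plus strand) are shown because they hold the most cores, in capitals, among the members.
Tnrc6c upstream: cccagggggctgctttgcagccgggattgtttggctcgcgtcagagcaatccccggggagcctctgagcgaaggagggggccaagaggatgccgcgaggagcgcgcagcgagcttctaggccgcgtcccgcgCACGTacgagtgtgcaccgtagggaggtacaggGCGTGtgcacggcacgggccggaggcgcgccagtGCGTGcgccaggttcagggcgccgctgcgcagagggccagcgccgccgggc
These matches are letters only: called and uncalled members are found both with and without a core.

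The long transcripts from which microRNAs are cut gave the other measurable end of the pathway. Of 15 host transcripts listed, 12 were matched and 10 could be tested, and 8 of these fell while none was called higher (0 also at an unadjusted p under 0.05 in edgeR and with DESeq2, which called 7 lower). In 6 of them every hypoxia library was below every control library. Over all genes tested, 12.8% were called lower and 10.1% higher, and in 7.26% every hypoxia library was below every control library. The median log2 fold change of the 10 was -0.58, against -0.02 over all genes tested. Host RNA is what was counted, and mature microRNA levels were not measured.

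Mir22hg (chr11:75461539-75466676, plus strand), the host of miR-22, had 10.9, 10.2, 11.3, 9.26 and 12.4 CPM in hypoxia 1 to 5, against 19.4, 17.7, 19.9, 21.0, 18.5 and 16.7 CPM in control 1 to 6. The groups were far apart (log2 fold change -0.80, SE 0.08). As 10.7% of the annotated exon length of Mir22hg overlaps a protein-coding gene on the same strand, reads there may come from either gene. Mirg (chr12:109729764-109749460, plus strand), a noncoding RNA of the imprinted Dlk1-Dio3 region whose span holds 14 annotated hairpins, had 9.43, 8.40, 7.49, 7.64 and 8.43 CPM in hypoxia 1 to 5, against 13.6, 15.8, 17.1, 14.3, 13.6 and 12.3 CPM in control 1 to 6. All hypoxia libraries were below all controls here too (log2 fold change -0.81, SE 0.09).

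Mir124a-1hg and Mir124-2hg, hosts of miR-124, an abundant neuronal microRNA, both fell. Mir124a-1hg had 58.0, 57.3, 55.0, 51.7 and 36.2 CPM in hypoxia 1 to 5, against 99.8, 93.1, 90.9, 90.7, 75.9 and 80.9 CPM in control 1 to 6 (log2 fold change -0.78, SE 0.10). Mir124-2hg was lower in level, at 2.53 to 3.54 CPM in hypoxia and 4.34 to 5.62 CPM in control (log2 fold change -0.79, SE 0.11). Hypoxia 5 was the lowest library for both, but the other hypoxia libraries were also below all controls.

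Mir17hg, host of the miR-17 to miR-92a cluster, had the largest fold change of the list, at a very low level: 0.126 to 0.414 CPM in hypoxia and 0.540 to 1.26 CPM in control (log2 fold change -1.56, SE 0.30). Mir9-3hg fell by 0.19 on the log2 scale (SE 0.05), with overlapping groups. Meg3 and Rian lie in the same stretch of chromosome 12 as Mirg, so the 3 are not independent examples. Rian had a log2 fold change of -0.21 (SE 0.05). Meg3 was near the threshold (log2 fold change -0.38, edgeR adjusted p = 0.0498): hypoxia 5 had 1500 CPM, the other hypoxia libraries 2598 to 2973 CPM, and the controls 2629 to 3738 CPM. Its call was lost in 13 of 20 alternatives, among them RLE scaling (edgeR adjusted p = 0.0583) and DESeq2 (adjusted p = 0.0741). A noncoding gene on the opposite strand overlaps 6.79% of the annotated exon length of Meg3. Mir99ahg, host of miR-99a and let-7c, and Mir670hg were not called. The authors' deposited table lists neither Mir17hg nor Rian, and lists the other called hosts as lower.

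**Figure D3:**
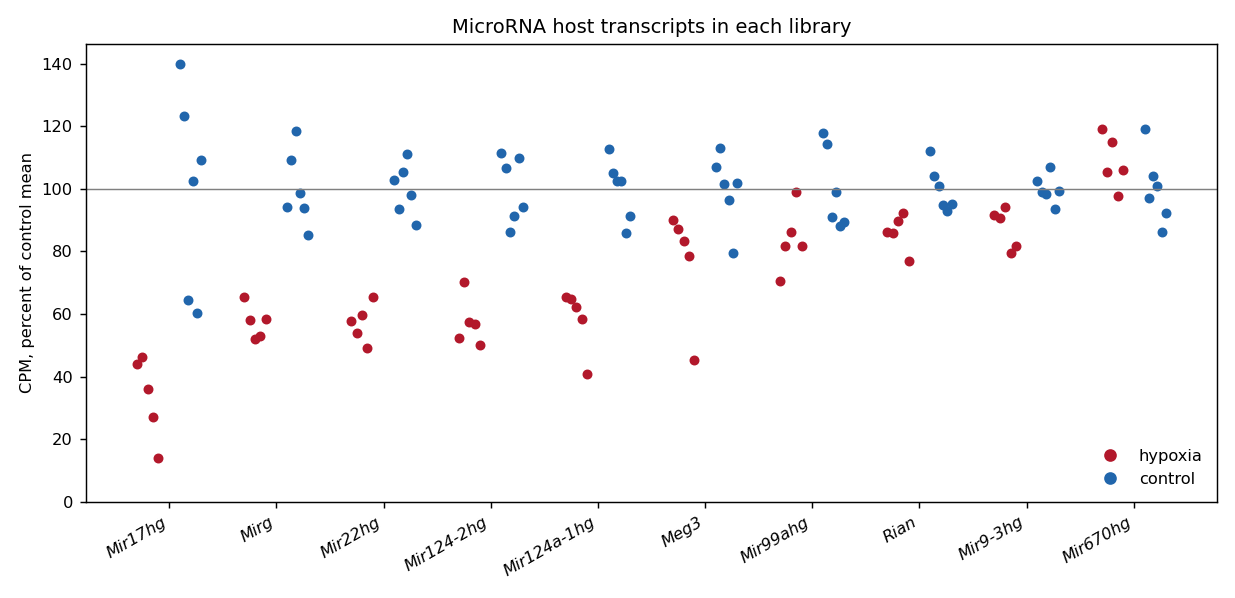
Level of each tested microRNA host transcript in each hypoxia (red, n = 5) and control (blue, n = 6) library, as a percent of the control mean of that transcript (linear axis from 0). The hypoxia libraries lie below all control libraries for Mir17hg, Mirg, Mir22hg, Mir124-2hg, Mir124a-1hg and Rian, and overlap them for the other 4.

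The mature sequences encoded in these hosts show which seeds lie within the spans of the host genes (RefSeq, GRCm38.p6, seed in capitals). They are given for the hosts that fell most and had an entry, together with miR-9-5p, a regulator of neural progenitors, and let-7c-5p of the uncalled Mir99ahg. In the miR-17 cluster, miR-17-5p and miR-20a-5p share 1 seed, and miR-19a-3p and miR-19b-3p share another.
miR-22-3p: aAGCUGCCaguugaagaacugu
miR-134-5p (Mirg): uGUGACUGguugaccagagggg
miR-485-3p (Mirg): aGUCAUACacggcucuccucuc
miR-410-3p (Mirg): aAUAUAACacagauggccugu
miR-17-5p: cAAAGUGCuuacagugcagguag
miR-20a-5p: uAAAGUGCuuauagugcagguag
miR-19a-3p: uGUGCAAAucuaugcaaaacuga
miR-19b-3p: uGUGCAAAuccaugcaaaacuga
miR-92a-3p: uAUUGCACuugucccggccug
miR-9-5p: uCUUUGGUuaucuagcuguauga
let-7c-5p: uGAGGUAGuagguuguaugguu
The miR-22 hairpin lies on the plus strand at chr11:75463716-75463810, inside an annotated exon of Mir22hg. The miR-9-3 hairpin (chr7:79505264-79505353, plus strand) lies in no annotated exon of Mir9-3hg, so reads of the spliced host do not cover it. The same holds for the let-7c-1 hairpin in Mir99ahg. Over the members and hosts, 71 mature sequences held 68 distinct seeds, and 3 seeds were shared by more than 1 sequence.

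Cofactors of the Microprocessor were called in both directions. Of 16 tested, 6 fell (37.5%) and 2 rose (12.5%), against 12.8% lower and 10.1% higher among all genes tested. Tardbp (TDP-43), an RNA-binding protein that associates with Drosha, averaged 154 ± 5.87 CPM in hypoxia and 184 ± 8.72 CPM in control (log2 fold change -0.26, SE 0.04). Hnrnpa2b1, a nuclear reader of RNA that binds some primary microRNAs, averaged 510 ± 17.4 CPM in hypoxia and 578 ± 14.3 CPM in control (log2 fold change -0.18, SE 0.03). Ddx17 (p72), an RNA helicase of the large Drosha complex, went the other way, at 578 ± 16.6 CPM in hypoxia and 496 ± 18.1 CPM in control (log2 fold change 0.22, SE 0.03). In all 3, named for having the smallest p of the list, the groups did not overlap. Of the 16, every hypoxia library was below every control library in 4 and above in 2. Among all genes tested these shares were 7.26% and 6.72%.

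Of 13 tested partners of export, dicing and Argonaute, 1 rose (7.69%) and 1 fell (7.69%). Among all genes tested these shares were 10.1% and 12.8%. Fxr1, an RNA-binding protein of the fragile X family, averaged 85.5 ± 2.10 CPM in hypoxia and 77.5 ± 3.05 CPM in control (log2 fold change 0.14, SE 0.04). Its relative Fmr1 averaged 87.5 ± 11.2 CPM in hypoxia and 102 ± 2.15 CPM in control (log2 fold change -0.22, SE 0.06), with overlapping groups. Without hypoxia 2, the Fmr1 call was lost and 0 partners were lower.

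In the list for precursor tailing and turnover, 12 of 13 genes were tested, 3 rose (25%) and 1 fell (8.33%). The shares of all genes tested were 10.1% and 12.8%. Trim71, which is known from stem cells as an Argonaute-binding repressor, was low, at 2.81 ± 0.173 CPM in hypoxia and 4.04 ± 0.291 CPM in control (log2 fold change -0.52, SE 0.09). Dis3l2, the exonuclease that degrades uridylated let-7 precursors, averaged 44.7 ± 1.98 CPM in hypoxia and 40.3 ± 1.81 CPM in control (log2 fold change 0.15, SE 0.04). Tut1, a terminal uridylyltransferase, had a log2 fold change of 0.19 (SE 0.06). Without hypoxia 1, or without hypoxia 4, 1 gene of the list rose in place of 3.

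The deadenylation, decapping and decay factors that act after Tnrc6 had 7 genes higher and 7 lower of 25 tested (28% each). Their median log2 fold change was 0.03. Of all genes tested, 10.1% were higher and 12.8% lower, with a median of -0.02. Edc3, an enhancer of decapping, averaged 51.8 ± 1.497 CPM in hypoxia and 42.5 ± 1.85 CPM in control (log2 fold change 0.28, SE 0.04). The related deadenylase subunits Cnot6 and Cnot6l both fell. Cnot6 averaged 64.9 ± 2.63 CPM in hypoxia and 81.5 ± 5.54 CPM in control (log2 fold change -0.32, SE 0.05). Cnot6l averaged 63.9 ± 6.98 CPM in hypoxia and 82.7 ± 4.28 CPM in control (log2 fold change -0.37, SE 0.06). Of the 3 PIWI genes, the germline relatives of the Argonautes, only Piwil2 had enough reads to be tested, at 0.730 ± 0.155 CPM in hypoxia and 0.741 ± 0.288 CPM in control. It was not called by edgeR or DESeq2, and its unadjusted p was above 0.05.

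**Figure D4:**
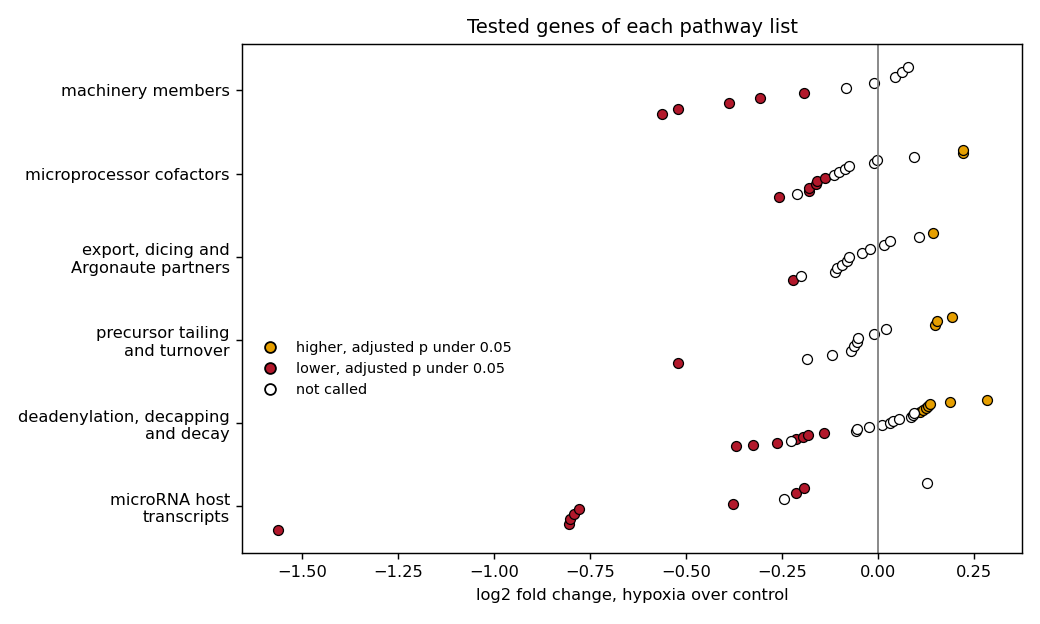
Log2 fold change, hypoxia over control, of every tested gene in 6 lists (1 point per gene, sorted within a list). Red points were called lower and orange points higher at an adjusted p under 0.05, and white points were not called. The machinery members and host transcripts hold no orange point, while the other 4 lists hold both colours. Of all genes tested, 10.1% were called higher and 12.8% lower.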

How the data were processed

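The authors deposited whole-number read counts per Ensembl gene, 1 table per library. The submitters' processing notes name STAR 2.5.2b, FastQC 0.11.5, DESeq2, featureCounts and Subread 1.5.1, and the build mm10. Annotation release, strand setting and treatment of reads with several matches: not given in the sources used here. Per the labels' protocols, polyadenylated RNA was sequenced as 50 bp single-end reads. The authors also deposited log2 fold changes, adjusted p-values and a normalized signal per library for the genes they listed; the fold changes and p-values are quoted as theirs and the signal was used only to check the size factors.

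Counts were filtered with filterByExpr, scaled by TMM and tested with edgeR 4.0.16 (R 4.3.3) by the quasi-likelihood F test, hypoxia over control, 2-sided, with no covariate and Benjamini-Hochberg adjustment over 16235 genes. Levels are CPM on TMM-scaled library sizes, as mean ± SD. An SE is the log2 fold change divided by the square root of F. Exon lengths are unions from GENCODE vM21. Alternatives included DESeq2 1.42.0, other scalings and filters, and each library left out.

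The members and the gene lists were chosen with earlier results of these data known. Named genes are all members, Ago3 and Ago4, the 3 called genes of each list with the smallest p (or the most abundant tested gene where none was called), and the 3 genes most like Dicer1. Other named genes, among them the other host transcripts, Prkra, Trmt2a and the cell type markers, were chosen after their values were seen. The labels do not say that equal replicate numbers pair the libraries, and the main test used no pairing. Prior count for log2 CPM in the likeness was 2.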

Additional observations from a re-analysis of the deposited data

Results flagged for a closer look

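In 1 of 60 groups searched (30 named genes in 2 groups), a single library stood apart from the others: Ago3 in hypoxia 5 had 40.8 CPM, while the other hypoxia libraries had 51.1 to 53.7 CPM. Chance flags about 1 in 20 such groups. Among the hypoxia libraries, hypoxia 5 was also the one farthest from its group over all genes and the lowest for Meg3 and Mir124a-1hg; the cause was not tested.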

How the results depend on the processing

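The count of members called lower was 5 in all 20 alternatives, of which 2 (without control 6, and the 10 libraries of the block without it) use the same libraries. Members called higher went from 0 to 1 without control 6, and over the libraries left out in turn ran from 0 to 1; this was Ago2. The fold change of Ago1, close to 0, changed sign to 0.0029 with RLE, 0.0037 with DESeq2 and 0.0018 with no filter, and ran from -0.018 to 0.0095 with 1 library left out. That of Ago3 ran from -0.067 to 0.030 with 1 library left out and was 0.053 without control 1 and hypoxia 5 together, an alternative chosen after seeing the data. Calls among export, dicing and Argonaute partners ran from 1 to 3 and among tailing and turnover genes from 2 to 4 with 1 library left out; without hypoxia 2 the first list had 1, since Fmr1 was no longer called, and without hypoxia 1 or hypoxia 4 the second had 2. Meg3 was not called in 13 of 20 alternatives (adjusted p up to 0.145, edgeR with robust dispersion), and Mir99ahg was called without hypoxia 4 (edgeR adjusted p = 0.0403). Genes called ran from 2937 to 4347. The labels do not say that a replicate number marks an isolation, so pairing by it was only an alternative. Deviations of same-numbered libraries correlated at -0.10, 0.14, -0.06, -0.06 and 0.31, and those of the other pairs at -0.27 to 0.19. With the replicate block (10 libraries) 2937 genes and 5 members, all lower, were called. Among the members Tarbp2 had the fewest reads, 105 to 231 counts per library. The cause of these shifts was not tested beyond the libraries left out.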
